A study of Mus musculus with 12 samples.

Results

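The 12 libraries of the series were split by origin, 6 from cells that descended from pluripotent stem cells (3 teratoma and 3 transplant libraries) against 6 from cells taken directly from mice (3 embryo and 3 adult libraries). Genes were sought whose values separated all 6 of one side from all 6 of the other, so that the lowest library of the higher side stood above the highest library of the lower side. Of 23284 gene symbols, 12699 reached 1 FPKM (a fragment count scaled by transcript length and library total) in at least 3 libraries and were tested, and 747 of these (5.88%) separated the sides. Of the 747, 625 were higher in the stem-cell-derived libraries (4.92% of tested genes) and 122 were lower (0.961%).

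Every library was labelled with the strain 129P2/OlaHsd, and all cells had been digested out of tissue with collagenase and dispase and sorted for α7-integrin and VCAM without CD31 and CD45. The teratoma group was sorted from 3-week-old teratomas, the mixed-tissue growths that pluripotent cells form in a host. The transplant group was sorted from tibialis anterior muscle 1 month after such teratoma-derived cells had been put there. Whole E14.5 embryos gave the embryo group, and the hindlimbs of 8-week-old males gave the adult group. The labels name neither the pluripotent line nor the hosts, and they give no mark that tells donor from host cells in the transplanted muscle. Per the design, the replicates are biological, but no animals are named, and p-values refer to the spread among the libraries, which may be in part technical. Body site also differed between the groups, and on the native side stage and site changed together.

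Satellite cells are the stem cells of skeletal muscle. They lie quiet against the fibre, carry the transcription factor Pax7, and on activation divide and pass through Myf5, Myod1 and Myog to form fibres. Pluripotent stem cells can form cells of every germ layer, and a teratoma holds many of these side by side. Imprinted genes keep 1 parental copy silent through DNA methylation marks that are set in the germ line and are passed on at cell division.

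Read depth was unknown, because the deposited values are FPKM. Between 9495 and 12000 genes reached 1 FPKM in a library, and small and ribosomal RNA took 40.4% to 98.2% of the FPKM sum. Embryo replicate 2 stood apart, with 74 genes listed at 0 that had 5 FPKM or more in embryo replicates 1 and 3, and other libraries had 6 to 27 such zeros. An exact 0 can be a failed estimate and is given below as listed. The sort genes Itga7 and Vcam1 were present in every library, with lowest, median and highest values of 34.9, 41.7 and 55.5 FPKM against 9.73, 36.2 and 62.6 for Itga7 and 66.7, 85.3 and 120 against 48.8, 70.8 and 117 for Vcam1. Neither separated the sides.

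The average difference between the sides was tested for each gene with limma on log2(FPKM + 1), a scale that understates the change of low genes, in a model with a mean for each of the 4 groups. A gene was called at a Benjamini-Hochberg adjusted p under 0.05 over all tested genes. The test called 2993 genes higher (23.6%) and 1681 lower (13.2%) in stem-cell-derived libraries, and 624 of the genes that separated higher (4.91% of tested genes) and 120 of those that separated lower (0.945%) were among them. Separation is the narrower criterion of the 2, since a gene could be called because 1 of the 2 stem-cell-derived groups lay far from the native ones. The gap, the difference on the log2(FPKM + 1) scale between the 2 libraries that lie nearest each other across the sides, had a median of 0.28 for the higher genes and 0.11 for the lower genes. It reached 1 for 61 higher and 4 lower genes. Teratoma libraries had 15.5% of tested genes called higher and 10.6% lower against embryo, and 36.4% and 8.94% against adult. Transplant libraries had 14.9% and 27.6% against embryo, and 27.3% and 16.9% against adult. In all 4 of these comparisons, which share libraries, 406 of the 625 higher and 48 of the 122 lower genes were called. A test of whether teratoma minus embryo differed from transplant minus adult was positive for 17.2% and negative for 21.7% of tested genes, and named genes it called are given in the closing section.

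The excess of higher genes depended on scaling. Genes that were higher made up 83.7% of those that separated with values as deposited, 58.9% after median-ratio scaling and 55.1% after quantile normalization, and 64.0%, 53.7% and 46.6% of those called. The median difference of all tested genes was 0.11 as deposited, 0.04 after median-ratio scaling and -0.07 after quantile normalization, and the differences below are to be read relative to these shifts. The number of genes separating lower was 334 and 346 under these 2 scalings, 427 without teratoma replicate 1 and 203 without embryo replicate 1. Under all 5 alternatives that changed the values of every library, 293 of the higher and 90 of the lower genes still separated the sides. Among these alternatives, another pseudocount cannot change which genes separate (625 and 122 again). Isolated zeros as missing can only add genes (629 and 125), so neither could remove one. In a limma fit with 1 mean per side, in which differences between the groups of a side count as spread, 919 genes (7.24%) were called higher and 231 (1.82%) lower. Of lists described below, that fit called 22 genes of interferon response and MHC class I, 14 immediate early, 17 fibrillar matrix and 21 sarcomere genes higher and 21 ribosome biogenesis genes lower.

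**Figure D1:**
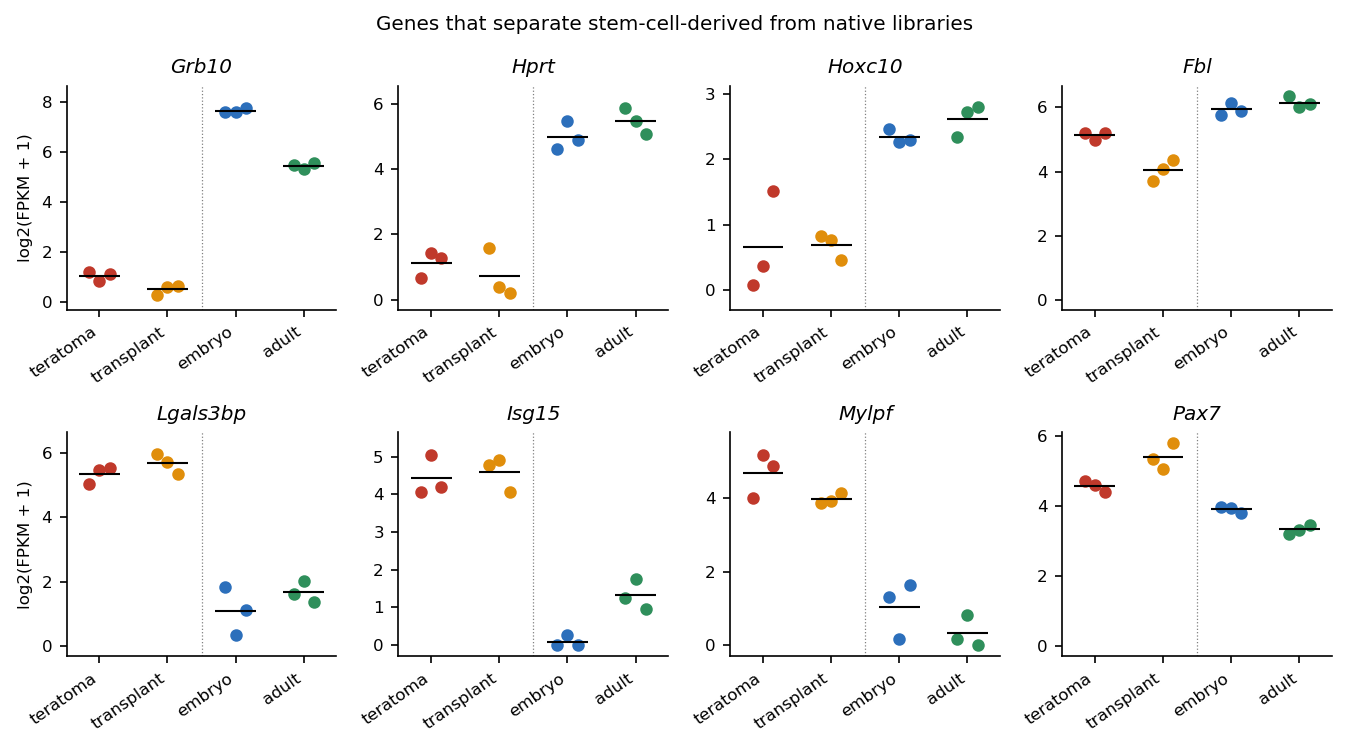
Level of 8 genes in each library as log2(FPKM + 1) (points, 3 libraries per group; horizontal bars, group means; the dotted line divides stem-cell-derived from native groups). Grb10, Hprt, Hoxc10 and Fbl were lower in all 6 stem-cell-derived libraries and Lgals3bp, Isg15, Mylpf and Pax7 higher, with the widest gap at Grb10 (4.11).

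The widest gap of all belonged to Grb10, an imprinted gene for an adaptor protein that binds growth factor receptors and restrains growth, which is expressed from the maternal copy in most tissues. It stood at 1.30, 0.788 and 1.16 FPKM in the teratoma libraries, 0.234, 0.502 and 0.569 in the transplant libraries, 195.8, 195.2 and 214 in the embryo libraries and 43.4, 38.9 and 46.0 in the adult libraries. All 6 stem-cell-derived libraries were thus near 0 while the native groups, although far from each other, were both high. The difference between the sides was -5.77 ± 0.12 (SE, adjusted p = 5.09e-11), and the gap of 4.11 was the distance from teratoma replicate 1 to adult replicate 2. The gene lies on chromosome 11 from 11930508 to 12038683 in mm10, on the minus strand. Of its tested neighbours, Ddc and Cobl had average differences of 1.14 and 0.48 (adjusted p = 0.00568 and 0.0287). Fignl1 differed by -0.27 (adjusted p = 0.315), and none of these 3 separated the sides. Cobl was low in embryo alone, at 0.368 to 0.719 FPKM. Its adult libraries, at 4.27 to 5.66, lay above the teratoma ones, at 2.14 to 3.04, with transplant at 3.67 to 4.29.

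Hprt, the enzyme that salvages the purines hypoxanthine and guanine, had the second of the 2 gaps wider than 3 on the lower side (3.01). Its lowest, median and highest values were 0.152, 1.01 and 2.02 FPKM in the stem-cell-derived libraries against 23.4, 38.1 and 57.3 in the native ones, a difference of -4.31 ± 0.27 (adjusted p = 1.12e-06). It lies on chromosome X from 52988137 to 53021659. Of its tested neighbours Phf6 differed by -0.69 on average (adjusted p = 0.00625). Its adult libraries, at 3.12 to 3.56 FPKM, lay below the teratoma ones, at 3.88 to 5.12, with transplant at 1.49 to 2.61 and embryo at 7.68 to 11.9. C430049B03Rik, Plac1 and Fam122b were not called, and none of these neighbours separated. Among 20 tested genes of purine synthesis and salvage, Impdh2, which makes guanine nucleotide precursors, also separated lower, at 23.4, 39.2 and 51.1 against 51.3, 59.9 and 73.7 FPKM (difference -0.69 ± 0.12, adjusted p = 0.00102, and 0.0604 in a limma fit with 1 mean per side). Its highest stem-cell-derived and lowest native library nearly touched. In the list as a whole 1 gene was called higher and 8 lower, against 23.6% and 13.2% of all tested genes, with a median of -0.34, and 3 were called lower in the fit with 1 mean per side.

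The 250 bases before a RefSeq start of Grb10 and of Hprt are shown because both genes were nearly silent on 1 side only. CG dinucleotides, the letters at which DNA is methylated in mammals, are in capitals. The sequences are RefSeq's for GRCm38.p6, written 5′ to 3′ on the strand of the gene. The Grb10 window (chr11:12037421-12037670, minus strand) held 40 CG dinucleotides and the Hprt window (chrX:52987828-52988077, plus strand) 17. RefSeq lists a second start of Grb10, whose window (chr11:12027972-12028221, not printed) held 8, and both Grb10 windows lie inside the GENCODE span given above. Which start was used was not measured. Methylation was not measured in this study.
Grb10: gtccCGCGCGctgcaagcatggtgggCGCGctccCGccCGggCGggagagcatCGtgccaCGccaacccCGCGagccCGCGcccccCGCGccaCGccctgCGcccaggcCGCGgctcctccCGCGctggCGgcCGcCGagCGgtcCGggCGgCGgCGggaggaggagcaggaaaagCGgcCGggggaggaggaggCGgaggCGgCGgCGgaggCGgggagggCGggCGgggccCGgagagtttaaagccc
Hprt: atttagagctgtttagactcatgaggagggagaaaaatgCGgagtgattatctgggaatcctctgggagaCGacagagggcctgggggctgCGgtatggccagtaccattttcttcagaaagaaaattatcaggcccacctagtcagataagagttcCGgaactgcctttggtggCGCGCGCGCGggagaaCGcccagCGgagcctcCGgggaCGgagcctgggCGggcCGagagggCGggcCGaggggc

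Other imprinted genes went both ways. Of 23 tested maternally expressed genes 7 were called higher and 7 lower, with a median of -0.06, and of 26 paternally expressed genes 5 were called higher and 9 lower, with a median of 0.01. Over all tested genes 23.6% were called higher, which is near the share in both lists, and 13.2% lower, which is below it in both. In the fit with 1 mean per side, 1 maternally expressed gene was called higher and 2 lower. Of the paternally expressed genes, that fit called 1 higher and 1 lower. In both lists together, 3 genes separated the sides, Grb10 and H13 lower and Sgce higher. H13, a membrane protease gene on chromosome 2, stood at 11.2, 14.8 and 26.0 FPKM in stem-cell-derived and 32.2, 39.2 and 53.7 in native libraries (difference -1.32 ± 0.18, adjusted p = 0.000213). Sgce, for the muscle membrane protein ε-sarcoglycan on chromosome 6, stood at 29.3, 38.5 and 53.4 against 4.75, 8.68 and 16.3 (difference 2.09 ± 0.24, adjusted p = 5.74e-05). H19, the maternally expressed noncoding RNA, averaged 14.7 FPKM over the teratoma libraries, 1.17 over transplant, 1466 over embryo and 6.37 over adult ones, so that it differed by -4.15 (adjusted p = 1.69e-10) without separating the sides.

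Most genes of the pluripotent state were listed at or near 0 on both sides. Of 28 listed pluripotency genes only 6 reached the filter. Of these 3 were called higher, against 23.6% of all tested genes, and none separated. Their median difference was 0.44, against 0.11 over all tested genes, and 6 genes are too few to compare shares. Pou5f1, the core pluripotency factor, was listed at 0 in every teratoma, transplant and embryo library, and its highest value anywhere was 0.299 FPKM, in an adult library. The highest Nanog values were 0.138 among teratoma, 0.266 among transplant, 0.0979 among embryo and 0.790 among adult libraries. Dppa3, Dppa4, Tcl1 and Nr0b1 were listed at 0 in all libraries. Sox2, which neural and epithelial cells also express, reached 4.42 in teratoma and 0.116 in transplant. Of 29 germline genes 3 reached the filter and none separated.

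Chromosome 6 carried a larger share of genes that separated higher than any other chromosome. Of its 645 tested genes 91 separated higher (14.1%) and 1 lower, while on the other autosomes and X the share higher ran from 3.11% (chromosome 2) to 5.56% (chromosome 8). The genes of chromosome 6 had a median difference of 0.51, against 0.02 to 0.17 for the other chromosomes, and 78.6% of them lay above 0, against 51.5% to 60.5%. Among genes averaging at least 5 FPKM, the median ratio of stem-cell-derived to native level was 1.30 for chromosome 6, whereas the other chromosomes ran from 0.837 to 0.996. Set against the median of those other chromosomes (0.919), chromosome 6 stood 1.42-fold higher.

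The shift was present in each library and between each pair of groups that crossed the sides. Relative to all tested genes, the median deviation of chromosome 6 was 0.19 to 0.22 in the 6 stem-cell-derived libraries and -0.28 to -0.17 in the 6 native ones. No other chromosome went outside -0.12 to 0.18 in any library, chromosome Y with its 4 tested genes aside. On Y, embryo replicate 2 stood at -2.41 and embryo replicates 1 and 3 at 0.17 and 0.13, and the cause was not tested. The median of chromosome 6, again relative to all genes, was 0.44 for teratoma minus embryo, 0.35 for teratoma minus adult, 0.43 for transplant minus embryo and 0.37 for transplant minus adult, 4 comparisons that share libraries. Within the sides it was 0.07 for adult minus embryo and 0.03 for transplant minus teratoma, inside the range of the other chromosomes (-0.16 to 0.15 and -0.10 to 0.05). In windows of 10 megabases, chosen after the values were seen, the median of the genes exceeded that of the other chromosomes in all 15 windows, by 0.27 to 0.61, of which 3 windows held under 20 genes. After median-ratio scaling 75 genes of chromosome 6 separated higher (11.6%, against 2.31% to 4.12% elsewhere), and the cause was not tested. Leaving out the genes of chromosome 6, 534 genes separated higher and 121 lower.

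**Figure D2:**
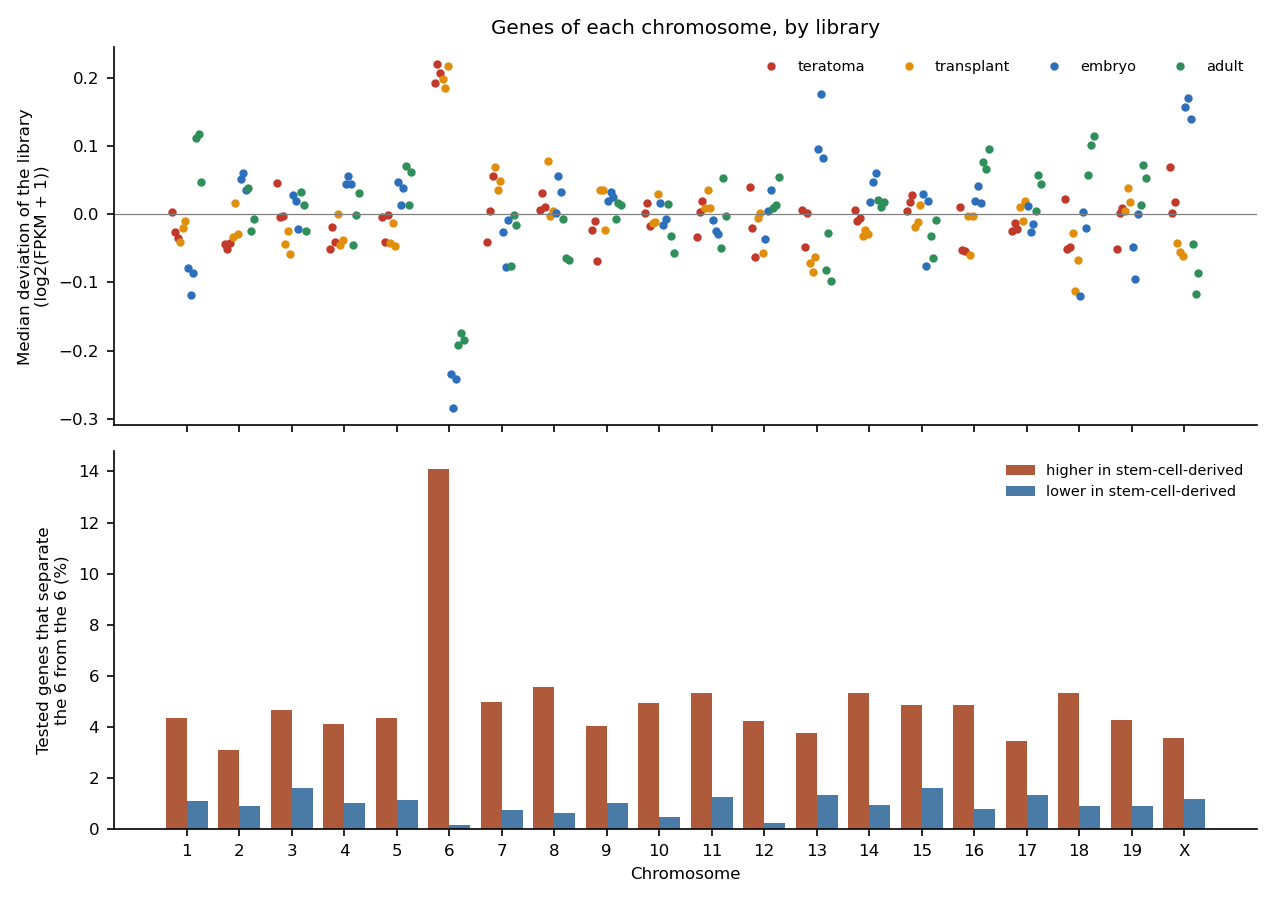
Top, for each chromosome and library, the median over its tested genes of the deviation from the gene's mean over the 4 groups, relative to all tested genes, in log2(FPKM + 1) units (chromosome Y, with 4 tested genes, is not drawn). Bottom, percent of the tested genes of each chromosome that separated the sides, with 14.1% higher on chromosome 6 against at most 5.56% elsewhere.

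The 91 genes of chromosome 6 spanned many functions. The widest gap among them was that of Usp18, the protease that removes Isg15 from proteins and damps interferon receptor signalling, at 5.53, 8.63 and 15.4 FPKM in stem-cell-derived libraries and 0, 0 and 0.322 in native ones. Mgp, the inhibitor of calcification in matrix, averaged 593 in teratoma and 1674 in transplant against 40.1 in embryo and 141 in adult (difference 3.85, adjusted p = 8.94e-06). Bhlhe40, a clock-linked repressor, averaged 101 and 238 against 14.0 and 29.6 (difference 2.88, adjusted p = 3.09e-07). Genes with smaller and steadier differences were among them too, such as Arf5, a small GTPase of the Golgi, at 83.4 and 81.7 against 48.8 and 38.2 (difference 0.93, adjusted p = 7.78e-05). In contrast, Hoxa9 and Hoxa10, which lie on chromosome 6 as well, were lower by 0.99 and 1.08 (adjusted p = 0.00623 and 0.00166).

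Interferon-induced genes were higher in the stem-cell-derived libraries. Of 34 tested genes on a list of the interferon response and MHC class I, 16 separated higher and none lower. Over all tested genes 4.92% separated higher. Called higher were 28, against 23.6% of all tested genes, and none were called lower, with a median difference of 1.41. In a second list of 41 further interferon-induced genes, drawn up after values had been seen, 30 separated higher and 40 were called higher, with a median of 1.62. Copies within the MHC, Oas and Gbp families resemble each other and can share reads, so single members are uncertain. After quantile normalization 15 of each list separated higher and 1 gene of the first was called lower.

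Isg15, a ubiquitin-like protein that is attached to others after interferon, stood at 15.7, 31.8 and 17.4 FPKM in teratoma, 26.5, 29.3 and 15.8 in transplant, 0, 0.191 and 0 in embryo and 1.35, 2.39 and 0.927 in adult. Both stem-cell-derived groups overlapped each other and lay far above every native library (difference 3.81 ± 0.23, adjusted p = 7.39e-07). Oasl2, an antiviral sensor relative, followed with 5.77, 8.72 and 12.1 against 0, 0.139 and 0.685 (difference 3.02 ± 0.21, adjusted p = 2.47e-06). Ifitm3, a membrane protein that hinders virus entry, was nearly level across the 6 stem-cell-derived libraries at 184, 192 and 213 and ran from 9.60 in embryo replicate 2 to 74.5 in adult replicate 3. Lgals3bp, a secreted galectin-binding glycoprotein that interferon induces, had the widest gap of all higher genes in the naming rule, with 31.7, 43.2 and 44.8 in teratoma and 60.9, 51.6 and 39.8 in transplant against at most 3.09 in any native library (difference 4.12 ± 0.24, adjusted p = 6.33e-07). The chemokine gene Cxcl10 stood at 29.1, 57.6 and 97.7 against 0.656, 2.79 and 11.2, all 3 teratoma libraries lying above the transplant libraries.

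The promoters of Isg15, Ifit1 and Ifit3 are shown because the interferon-stimulated response element, searched as GAAA, any 2 bases and GAAA again on both strands, can be read in them. The 250 bases before the start are RefSeq's for GRCm38.p6, 5′ to 3′ on the strand of the gene, with matches in capitals. They lie at chr4:156200819-156201068 (minus strand) for Isg15, chr19:34640639-34640888 (plus) for Ifit1 and chr19:34583279-34583528 (plus) for Ifit3. The run in Isg15 is made of 3 overlapping matches on the strand of the gene, and Ifit1 and Ifit3 each hold 2 matches on the opposite strand, where the letters read as the reverse complement.
Isg15: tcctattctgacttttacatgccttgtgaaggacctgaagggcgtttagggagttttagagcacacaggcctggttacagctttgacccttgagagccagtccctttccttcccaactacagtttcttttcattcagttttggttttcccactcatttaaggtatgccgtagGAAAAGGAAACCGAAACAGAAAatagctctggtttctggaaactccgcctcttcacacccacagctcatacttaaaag
Ifit1: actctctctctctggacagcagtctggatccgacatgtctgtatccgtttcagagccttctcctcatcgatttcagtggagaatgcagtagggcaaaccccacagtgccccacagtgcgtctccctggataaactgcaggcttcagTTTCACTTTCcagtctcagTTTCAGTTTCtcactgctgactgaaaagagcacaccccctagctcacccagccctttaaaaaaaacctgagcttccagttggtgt
Ifit3: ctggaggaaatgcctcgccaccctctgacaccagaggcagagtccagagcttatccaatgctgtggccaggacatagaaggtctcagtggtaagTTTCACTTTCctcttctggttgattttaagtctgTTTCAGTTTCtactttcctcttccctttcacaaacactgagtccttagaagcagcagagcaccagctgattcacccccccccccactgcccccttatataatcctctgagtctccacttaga
Of the 16 list members that separated the sides, 15 had a promoter in the table and 8 of these held the motif. Of the members that did not separate, 14 had a promoter and 4 held it. The windows of Oasl2, Lgals3bp, Xaf1 and Irf7 were searched too and held no match, and that of Stat2 held 1. In the second list, 27 of 41 tested genes had a promoter and 6 held the motif. Of its 30 members that separated, 18 had a promoter and 6 held it. Over all genes in the promoter table the motif was found for 3.46%, and in 2.98% of all 32851 windows of the same length. A match describes letters only, and these data hold no measure of binding.

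Genes of antigen presentation by MHC class II were higher with them. Of 5 tested, 4 separated higher: H2-Aa, H2-Ab1, H2-Eb1 and the invariant chain gene Cd74, in a list added after values had been seen. Over all tested genes 4.92% separated higher. H2-Aa stood at 2.91, 4.27 and 4.74 FPKM in teratoma and 6.98, 6.89 and 3.82 in transplant, and was listed at 0 in all embryo libraries and at 0, 0.455 and 0.492 in adult. Cd74 stood at 2.37, 7.48 and 11.3 over the stem-cell-derived libraries and at most 0.982 in native ones.

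Markers of leukocytes moved the same way, although the sort had left out cells with CD45. Of 13 tested, 5 separated higher and 12 were called higher, against 4.92% and 23.6% of all tested genes, with a median of 1.66. The summed level of the 20 markers in the table was 81.5 to 230 FPKM in teratoma and 31.1 to 64.2 in transplant, against 5.997 to 13.5 in embryo and 7.62 to 17.0 in adult. C1qa, the macrophage complement gene, stood at 10.4, 5.11 and 10.4 in teratoma and 5.49, 4.72 and 1.51 in transplant and was listed at 0 in 5 of the 6 native libraries. Lyz2, for lysozyme, reached 77.9 in teratoma replicate 3. Of the 20 markers, 5 (Cd3e, Cd52, Cd79a, S100a8 and S100a9) were listed at 0 in every transplant library. In adult 11 were, these 5 and Ptprc, the gene of CD45, among them, against 6 in embryo and 1 in teratoma. In bulk RNA, fewer cells of a type and less RNA per cell cannot be told apart, and the part of leukocytes in the interferon and MHC results was not tested.

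**Figure D3:**
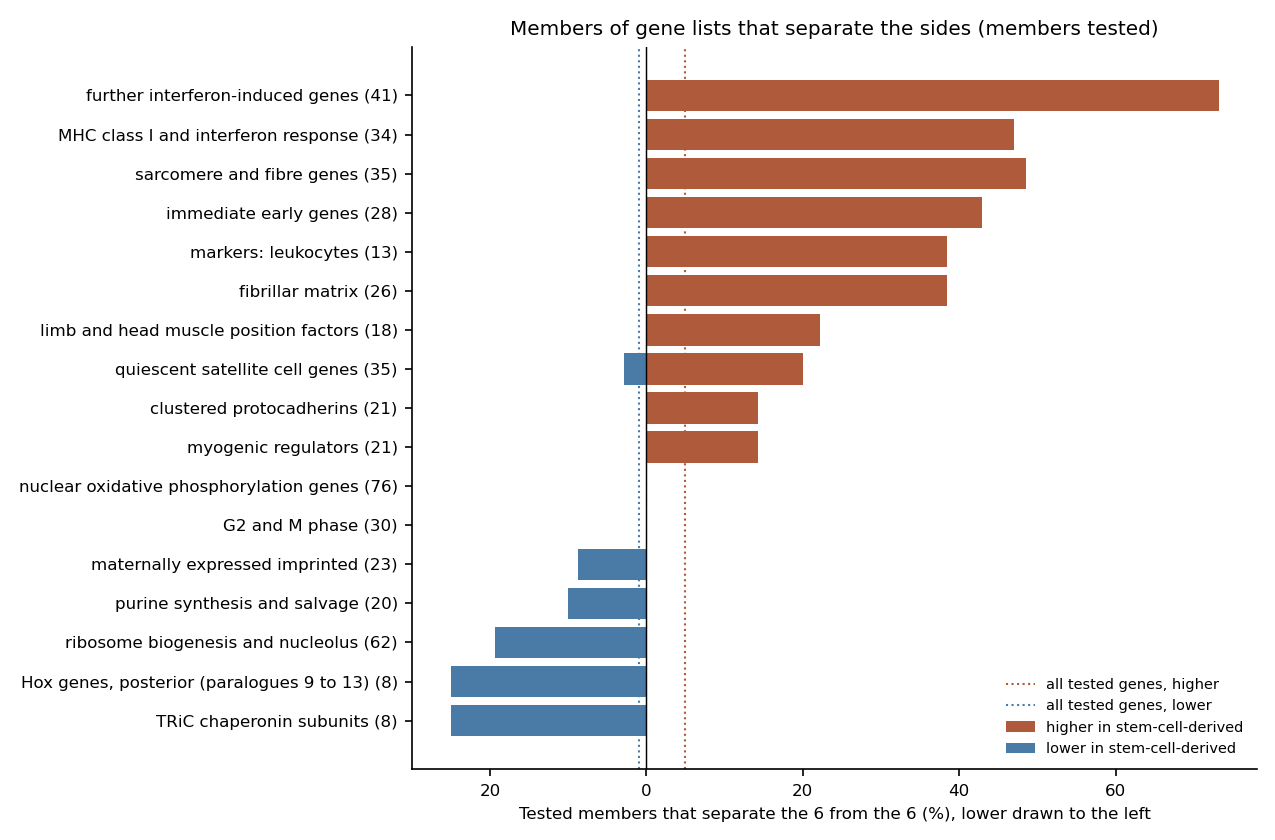
Percent of the tested members of gene lists that separated the sides (number tested in parentheses), higher in stem-cell-derived libraries to the right and lower to the left; dotted lines mark all tested genes, 4.92% and 0.961%. Among the lists drawn, interferon, sarcomere and immediate early genes reached furthest to the right and ribosome biogenesis, TRiC and posterior Hox genes to the left. The further interferon-induced, sarcomere, ribosome biogenesis and TRiC lists were drawn up after values had been seen, so their positions are descriptive only.

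Sarcomere and fibre genes were higher in the stem-cell-derived libraries. In a list of 35 tested genes added after values had been seen, 17 separated higher, against 4.92% of all tested genes, and none separated lower. Called higher were 31, against 23.6% of all tested genes, with a median of 1.41. Mylpf, the fast myosin regulatory light chain, stood at 15.2, 35.04 and 28.4 FPKM in teratoma, 13.8, 14.1 and 16.7 in transplant, 1.47, 0.122 and 2.10 in embryo and 0.128, 0.767 and 0 in adult (difference 3.65 ± 0.28, adjusted p = 3.75e-06). Every stem-cell-derived library was above 13 FPKM and every native one under 3. Cox6a2, the muscle form of a cytochrome oxidase subunit, was at 2.73, 5.69 and 7.16 and was listed at 0 in all 6 native libraries. Cacng1, a subunit of the muscle calcium channel, stood at 4.74, 22.4 and 27.7 against 0, 0.363 and 1.36, and Ak1, the adenylate kinase of muscle, at 9.38, 14.4 and 28.7 against 0.314, 0.856 and 1.77. Embryo libraries overlapped transplant libraries in the summed level of the list, at 275 to 339 FPKM against 273 to 322, and the cardiac actin gene Actc1 alone averaged 103 in embryo.

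Pax7, Heyl and Cdh15 were higher in the stem-cell-derived libraries, and Myod1 was not. Pax7 stood at 25.5, 23.5 and 20.1 FPKM in teratoma and 39.8, 32.3 and 54.8 in transplant, above 14.7, 14.3 and 13.1 in embryo and 8.24, 9.02 and 10.1 in adult (difference 1.37 ± 0.14, adjusted p = 2.12e-05). The Notch target Heyl stood at 36.4, 52.1 and 81.2 against 8.36, 14.4 and 19.2 (difference 1.92 ± 0.13, adjusted p = 1.65e-06). Cdh15, the M-cadherin of satellite cells, stood at 37.7, 53.0 and 87.9 against 16.1, 22.5 and 29.3. Of 21 myogenic regulators 3 separated higher (Pax7, Cdh15 and Nfix), and 8 were called higher and 3 lower, against 4.92%, 23.6% and 13.2% of all tested genes. After median-ratio scaling Pax7 alone of these 21 separated. Myod1, at 29.8, 45.5 and 62.2 on the stem-cell-derived side, lay between embryo (11.2 to 23.6) and adult (343 to 442) and did not separate. Of 35 genes of quiescent satellite cells 7 separated higher and 1 lower, against 4.92% and 0.961% of all tested genes. The 1 lower was Tek, the angiopoietin receptor. In this list 23 were called higher and 2 lower, against 23.6% and 13.2%. After median-ratio scaling 4 separated higher, against 3.38% of tested genes off chromosome 6.

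Immediate early genes, which signals and stress switch on within minutes, also separated. Of 28 tested, 12 separated higher and none lower, and 23 were called higher, with a median of 1.27. Over all tested genes 4.92% separated higher and 23.6% were called higher. After median-ratio scaling 7 of the 28 separated. Fos stood at 297, 425.5 and 435 FPKM in teratoma and 943, 763 and 913 in transplant, against 173, 163 and 225 in embryo and 109, 114 and 122 in adult (difference 1.97 ± 0.13, adjusted p = 1.45e-06). Egr1 stood at 760, 881 and 1162 against 277, 394 and 437. All 12 libraries followed the same digestion protocol per the labels, and the time each took was not given in the sources used here. Of 17 heat shock and chaperone genes 2 separated higher, against 4.92% of all tested genes. Of the 17, 6 were called higher and 5 lower, where 23.6% and 13.2% of all tested genes were called. None of them separated after median-ratio scaling, and after quantile normalization 1 separated and 9 were called higher against 2 lower.

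Fibrillar matrix genes were called higher without exception. All 26 tested were called higher, against 23.6% of all tested genes, and 10 separated higher, against 4.92%. The median was 1.37. Eln, for elastin, stood at 97.5, 205 and 459 FPKM against 17.7, 30.7 and 40.1 (difference 2.89 ± 0.21, adjusted p = 2.68e-06). Bgn, for the proteoglycan biglycan, stood at 422, 655 and 535 in teratoma, 1526, 1570 and 1062 in transplant, 99.8, 82.2 and 89.3 in embryo and 251, 262 and 246 in adult (difference 2.48 ± 0.14, adjusted p = 6.33e-07). Col15a1, a basement membrane collagen, was at 200, 225 and 244 over the stem-cell-derived libraries and at most 59.0 in native ones. Summed fibroblast markers were 850 to 1062 in teratoma and 2336 to 2974 in transplant against 549 to 740 in embryo and 1199 to 1348 in adult, and tendon markers 1874 to 2770, 3627 to 5278, 1304 to 1827 and 871 to 1007 in the same order. Tendon markers thus separated the sides as a sum and fibroblast markers did not, and their part in the matrix result was not tested.

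Genes of the machinery that makes ribosomes were lower in the stem-cell-derived libraries. The list of 62 tested genes of ribosome biogenesis and the nucleolus was added after values had been seen. Of these, 12 separated lower and none higher, against 0.961% of all tested genes separating lower. Called lower were 50, against 13.2% of all tested genes, and none were called higher, with a median of -0.85. Fbl, the methyltransferase fibrillarin that modifies ribosomal RNA, stood at 35.9, 30.9 and 35.6 FPKM in teratoma, 11.9, 16.03 and 19.8 in transplant, 53.5, 69.8 and 58.4 in embryo and 80.4, 62.9 and 67.9 in adult (difference -1.45 ± 0.13, adjusted p = 1.25e-05). Transplant libraries were the lowest and teratoma libraries intermediate. Dkc1, which pseudouridylates RNA, stood at 2.98, 4.77 and 9.11 against 11.9, 13.5 and 16.7. The 13 genes that separated after median-ratio scaling and the 10 after quantile normalization were again all lower. Ribosomal protein genes, by contrast, numbered 1 separating lower (Rpl7l1) and 21 called lower of 81, with a median of -0.19. After median-ratio scaling 10 of them separated lower, against 2.78% of tested genes off chromosome 6.

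Subunits of TRiC, the ring-shaped chaperonin that folds actin and tubulin, were lower as well. In a list added after values had been seen, 2 of 8 tested (Cct3 and Cct8) separated lower, against 0.961% of all tested genes. Called lower were 7, against 13.2% of all tested genes, with a median of -0.99. Cct7, which lies on chromosome 6, differed by -0.10 (adjusted p = 0.545). Cct3 stood at 15.3, 24.5 and 42.0 FPKM against 57.0, 71.6 and 80.2 (difference -1.499 ± 0.154, adjusted p = 2.79e-05). After median-ratio scaling 6 subunits separated, all lower, where 2.78% of tested genes off chromosome 6 separated lower. None of 29 S phase and 30 G2 and M phase genes separated, although 13 and 12 were called lower, against 13.2% of all tested genes. In summed level, embryo was highest for both lists, and adult lay below teratoma. S phase genes summed to 355 to 479 FPKM in teratoma, 90.2 to 117 in transplant, 951 to 1100 in embryo and 181 to 188 in adult. G2 and M phase genes summed to 235 to 298, 25.8 to 47.2, 697 to 899 and 10.9 to 25.9 in the same order. After median-ratio scaling 2 S phase genes separated lower.

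Positional genes differed in both directions. Of 8 tested posterior Hox genes Hoxc10 and Hoxc9 separated lower and 4 were called lower. Of 8 central ones 6 were called lower, and of 10 anterior ones 2 were. Over all tested genes 0.961% separated lower and 13.2% were called lower. In the central and anterior lists embryo alone stood apart in summed level. Central genes summed to 3.89 to 5.33 FPKM in teratoma, 4.11 to 6.77 in transplant, 30.2 to 47.0 in embryo and 4.68 to 7.50 in adult. Anterior genes summed to 8.63 to 10.8, 5.27 to 14.2, 40.3 to 67.1 and 2.01 to 4.20 in the same order. Hoxc10, which is expressed in hindlimb and lower trunk, stood at 0.0549, 0.293 and 1.86 FPKM in teratoma and 0.769, 0.706 and 0.375 in transplant, against 4.47, 3.80 and 3.89 in embryo and 4.07, 5.62 and 5.92 in adult (difference -1.81 ± 0.24, adjusted p = 0.000158). It was low in transplanted cells although these had been sorted from a hindlimb muscle. En1, a homeobox gene of limb ectoderm and dorsal muscle, stood at 0.317, 1.65 and 2.66 against 4.37, 6.86 and 9.58. Of 18 tested position factors of head and limb muscle, 8 were called higher and 4 lower (Tbx5, Msc, Lbx1 and Tbx15), against 23.6% and 13.2% of all tested genes. Those that separated were 4, all higher, against 4.92% of all tested genes. They were Tcf21 and Isl1, which mark head and heart mesoderm, Barx2, which is expressed in muscle progenitors, and the hindlimb factor Tbx4. Tcf21 stood at 8.76, 13.4 and 10.6 in teratoma and 3.41, 4.81 and 3.41 in transplant, and was listed at 0 or at most 0.142 in native libraries (difference 2.86 ± 0.16, adjusted p = 6.33e-07). Tbx4 lost its separation when small and ribosomal RNA were left out or the values were rescaled.

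**Figure D4:**
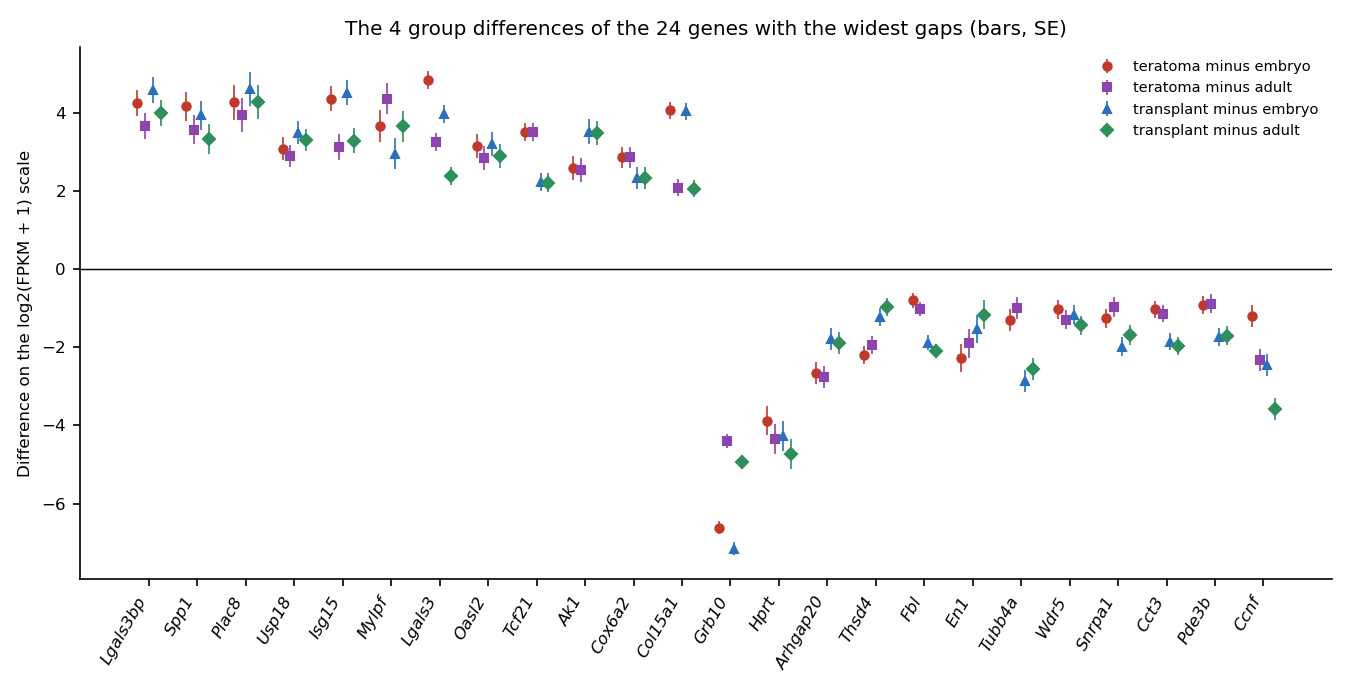
Differences on the log2(FPKM + 1) scale between each stem-cell-derived and each native group, with SE, for the 12 higher and 12 lower genes with the widest gaps under the naming rule. The 4 comparisons share libraries; Grb10 reached furthest from 0, and Usp18, for one, lay between 2.89 and 3.49 in all 4.

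Among the remaining genes with the widest gaps, Spp1 encodes the secreted phosphoprotein osteopontin and stood at 32.8, 52.4 and 75.6 FPKM against 1.36, 3.22 and 4.90 (difference 3.74 ± 0.26, adjusted p = 2.3e-06). Plac8, a small cysteine-rich protein, stood at 12.8, 22.6 and 41.1 and was listed at 0 in 4 of the 6 native libraries. Lgals3, for galectin 3, stood at 34.6, 34.2 and 26.6 in teratoma and 20.2, 17.5 and 13.7 in transplant against at most 2.64. On the lower side Arhgap20, a GTPase-activating protein, stood at 0.0965, 0.599 and 1.75 against 5.23, 7.43 and 10.03 (difference -2.28 ± 0.20, adjusted p = 8.94e-06). Thsd4, a matrix protein that promotes microfibrils, stood at 2.10, 4.02 and 7.15 against 11.1, 14.6 and 19.3. Wdr5, a shared subunit of histone methyltransferases, stood at 6.24, 9.60 and 11.8 against 17.5, 23.3 and 31.7. Ccnf, the F-box cyclin, ran from 0.716 in transplant replicate 1 to 6.25 in teratoma replicate 1 and from 8.63 in embryo replicate 1 to 29.9 in adult replicate 2.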

How the data were processed

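RNA-seq of 12 mouse libraries was used, 3 in each of 4 groups. Per the labels' protocols, libraries were made from total RNA with a stranded Pico-input kit. Per the submitters' processing notes, the build was mm10 and the tools were Partek, Cufflinks 2.2.1.0, TopHat 0.7 and CASAVA 1.8.2, with no roles given. Neither the annotation nor strand use is given in the sources used here. Per the file headers, 1 table with an FPKM for each symbol in each library was deposited by the authors. It held 23746 entries, and 702 entries under 240 repeated symbols were summed. Tests used R 4.3.3 and limma 3.58.1 on log2(FPKM + 1), with an intensity trend, for genes at 1 FPKM or more in at least 3 libraries. Positions came from GENCODE M21 (mm10, 12550 of 12699 genes matched) and promoters from RefSeq (GRCm38.p6). Steps were tested on simulated data.

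The members and gene lists were chosen with earlier results of these data known. Named genes were the 12 higher and 12 lower with the widest gap, called, and with a median of at least 5 FPKM on the higher side, without predicted, small RNA, ribosomal protein and histone genes, then up to 3 members per list, and Hprt, Itga7, Vcam1, Pax7 and Myod1. Genes of chromosome 6 other than Usp18 and Sgce, H19, list members given only by name, gene neighbours and pluripotency genes were chosen after seeing values. Alternatives were another pseudocount, other filters, 2 scalings, a 2-group fit, the replicate number as a block, quality weights, isolated zeros as missing, small RNA left out, stricter thresholds, each library left out and, chosen after seeing the data, chromosome 6 left out.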

Additional observations from a re-analysis of the deposited data

Results flagged for a closer look

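The difference of teratoma from embryo and that of transplant from adult were set against each other by an interaction term in limma, adjusted over all tested genes, and 2182 of them (17.2%) were called with a positive and 2762 (21.7%) with a negative value. The 24 named genes below were among them, each given with teratoma minus embryo less transplant minus adult on the log2(FPKM + 1) scale.

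Positive in both settings, and larger in the first, were the differences of Lgals3 (2.44, adjusted p = 0.000189), Tcf21 (1.29, adjusted p = 0.00879), Col15a1 (2, adjusted p = 0.000459), Ifitm3 (1.96, adjusted p = 0.00127), Ifit1 (1.23, adjusted p = 0.0212), Xist (1.17, adjusted p = 0.00774) and Sox9 (1.91, adjusted p = 0.000785). Sox9, a cartilage regulator, differed by 2.42 between teratoma and embryo and by 0.51 between transplant and adult, the latter not called (adjusted p = 0.0899). Xist, which coats the inactive X chromosome, was under 3 FPKM in every library, and its difference of 0.44 between transplant and adult was not called (adjusted p = 0.103).

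Positive in both settings, and larger in transplant against adult, were the differences of Pax7 (-1.4, adjusted p = 0.00193), Heyl (-1.5, adjusted p = 0.000923), Fos (-1.88, adjusted p = 0.000233), Col6a1 (-0.783, adjusted p = 0.0216) and Mfap5 (-2.07, adjusted p = 0.0302). Fos differed by 1.03 and 2.91 and Pax7 by 0.67 and 2.07.

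Negative in both settings, and larger in size in teratoma against embryo, were those of Grb10 (-1.68, adjusted p = 0.00028) and Thsd4 (-1.25, adjusted p = 0.00983). Negative in both, and larger in size in transplant against adult, were those of Fbl (1.29, adjusted p = 0.00259), Tubb4a (1.25, adjusted p = 0.0249), Cct3 (0.94, adjusted p = 0.0301), Ccnf (2.38, adjusted p = 0.000642), Lyar (1.18, adjusted p = 0.00823), Cct8 (0.692, adjusted p = 0.0305) and Rpl7l1 (0.648, adjusted p = 0.0471), of which Rpl7l1 was not called in teratoma against embryo (-0.41, adjusted p = 0.0951).

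The differences had opposite signs for Itga7 (2.52, adjusted p = 1.81e-05), Vcam1 (1.01, adjusted p = 0.0189) and Myod1 (4.73, adjusted p = 1.01e-05). Myod1 was higher in teratoma than in embryo by 1.45 and differed by -3.28 between transplant and adult, and Itga7 differed by 1.98 and -0.54. Vcam1 differed by 0.71 and -0.30, the latter not called (adjusted p = 0.274), so that a reversal is not shown for it.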

How the results depend on the processing

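Depth is unknown, so low FPKM values carry no interval. The count of genes separating higher was 393 with a mean of at least 5 FPKM and 61 with a gap of at least 1, and that of genes separating lower was 334 after median-ratio scaling, 346 after quantile normalization, 200 without small and ribosomal RNA and 4 with a gap of at least 1. Called higher were 1842 with the stricter filter, 919 in the 2-group fit and 1305 with a difference of at least 1, and called lower 2538 after quantile normalization, 231 in the 2-group fit and 316 with a difference of at least 1. Separating and called were 393 higher genes with the stricter filter and 333, 342 and 199 lower genes under median-ratio scaling, quantile normalization and without small RNA. On chromosome 6, 8 genes separated higher with a gap of at least 1. Its median minus that of other genes, 0.416, was 0.529 with a pseudocount of 0.1, 0.212 without a filter, 0.538 with the stricter filter and 0.440 after quantile normalization. Leaving out each library in turn gave 656 to 841 genes separating higher and 126 to 427 lower, 2429 to 3095 called higher and 1341 to 1852 lower, 652 to 838 and 121 to 420 with both criteria, 94 to 111 for chromosome 6 and medians of 0.410 to 0.446. The cause was not tested. Of the named genes no direction reversed. Calls were lost by Impdh2 (adjusted p = 0.0604), Hsp90b1 (0.0587), Itga7 (0.407) and Myod1 (0.569) in the 2-group fit and by Pcdhb19 (0.189) after quantile normalization, and 62 separated under all 5 alternatives that changed every library's values. Named genes that lost their separation under at least 1 of them were Tbx4, Nfix, Cdh15, Egr2, Hspb8, Hsp90b1, Pcdhb19, Pcdhb7, Pcdhb11, Xist, Eng, Mfap5, Cd34 and Sox9. With the replicate number as a block, 742 genes separated and were called, 99.7% of the 744. Same-numbered libraries of different groups correlated at -0.0951 to 0.0956 and differently numbered ones at -0.101 to 0.143. No pairing by number was seen in these values, and a weak one could be missed.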

Other observations

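Other gene groups were measured as well. Of 21 tested clustered protocadherins, adhesion molecules that neurons use for self-recognition, 14 were called higher and 3 separated higher. The shares over all tested genes were 23.6% and 4.92%, and the median of the protocadherins was 0.77. After quantile normalization 6 were called and none separated. Pcdhb11, one of them, stood at 1.97, 4.73 and 9.91 FPKM in stem-cell-derived against 0, 0.209 and 1.75 in native libraries, and members of the cluster resemble each other closely enough to share reads. Of 9 oncofetal RNA regulators 6 were called lower, against 13.2% of all tested genes, and none separated. Of 76 nuclear genes of oxidative phosphorylation 17 were called higher, near the 23.6% of all tested genes, and 1 lower, and none separated. Slc39a1, a zinc importer, was the 1 of 12 tested metallothionein and zinc genes that separated, at 40.6, 50.8 and 55.3 against 19.5, 26.8 and 38.9.

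Markers of other cell types that the sort could have held also differed. Of 15 tested epithelial and endodermal markers 13 were called higher and 2 separated higher (Spp1 and Lgals4), against 23.6% and 4.92% of all tested genes. The summed level of these markers was 316 to 876 FPKM in teratoma, 36.6 to 77.4 in transplant, 9.78 to 63.7 in embryo and 4.90 to 9.22 in adult. Of 14 endothelial markers Eng separated higher and Tek lower, against 4.92% and 0.961% of all tested genes, and no other was called. Erythroid markers summed to 386 to 2093 in embryo and to at most 58.3 elsewhere.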
